A study of Mus musculus with 12 samples.

Results

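The interferon-stimulated genes described here were 38 listed genes of the type I interferon response, among 35976 genes in a table of gene-level read counts from mouse bone marrow. All 38 had a row in the table, and 37 had enough reads to be tested, the exception being Isg15. The list was fixed by name, not by level, though with earlier results of these data known. It covered 3 transcription factors (Irf7, Irf9, Stat2), 4 nucleic acid sensors (Ddx58, Ifih1, Dhx58, Zbp1), 4 Ifit genes, 5 genes of the OAS family, 2 Mx genes, 3 genes of the ISG15 system (Isg15, Usp18, Herc6) and 6 interferon-inducible GTPases (Irgm1, Igtp, Ifi47, Gbp2, Gbp3, Gbp7). The remaining members were Rsad2 and Cmpk2, the membrane proteins Bst2 and Ifitm3, the kinase gene Eif2ak2, and 6 further induced genes (Ifi44, Ifi35, Xaf1, Parp14, Rtp4, Trim30a).

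Polyadenylated RNA had been sequenced from CD45.2+ bone marrow cells of C57BL/6 mice that had been sorted by flow cytometry. The 12 libraries formed 4 groups of 3. The BN1 leukemia carried BRD9-NUTM1, a fusion of a chromatin remodelling subunit with NUTM1. The MA9 leukemia carried MLL-AF9, the ME leukemia carried MLL-ENL, and the WT group was normal B6 marrow with CD45.2 alone. The labels give neither the species of the fusion constructs nor the vector or promoter that drove them, and the labels leave open whether replicate libraries stem from different mice. The p-values therefore measure the spread between these libraries, which may be technical.

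Type I interferons are secreted cytokines that bind a receptor made of IFNAR1 and IFNAR2. The receptor activates the kinases JAK1 and TYK2, which phosphorylate STAT2 among other factors. STAT2 and IRF9 are subunits of the complex ISGF3, which binds the interferon-stimulated response element (ISRE) in the promoters of antiviral genes. Many of these genes are also expressed at a basal level without infection, and in bone marrow the plasmacytoid dendritic cell is a strong producer of interferon. Interferon-gamma acts through another receptor, and it shares many targets with the type I response, the GTPase genes among them.

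Library totals ran from 18292636 to 25732049 counts and were the depth behind every value. Levels are given as CPM, which are counts scaled to a common library size. Each called gene had an adjusted p under 0.05, which throughout is the Benjamini-Hochberg value of edgeR's quasi-likelihood test over all 15334 genes tested. The third ME library stood apart. Its counts differed from those of the other ME libraries by a mean chi-square of 32.3 and 35.2 per gene, against 2.005 to 7.513 in the other pairs of replicates. LOC101056014 had 14795 CPM there, against 446 and 455 CPM in the other ME libraries. Ptprc, which encodes CD45, averaged 498 CPM in BN1, 382 CPM in MA9, 324 CPM in ME and 997 CPM in WT. Mouse Nutm1 had 0.766 to 1.07 CPM in BN1, 5.83 to 6.61 CPM in MA9, 0.589 to 1.61 CPM in ME and 0 to 0.249 CPM in WT, so it was highest in MA9 and overlapped between BN1 and ME. Whether reads of the BN1 fusion would be counted there is unknown, and these counts do not check that label.

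Most of the interferon-stimulated genes were lower in all 3 leukemias than in normal marrow. In BN1 against WT, 28 of the 37 tested members fell and 4 rose, whereas 40.8% of all genes tested fell and 38.4% rose. In MA9 against WT, 35 members fell and 1 rose, against 40.8% and 39.3% of all genes. In ME against WT, 34 fell and 3 rose, against 40.2% and 39.0% of all genes. The median log2 fold change over the members was -1.02 in BN1, -2.05 in MA9 and -1.50 in ME, where the median over all genes tested was -0.01 in each. At a minimum change of 2-fold, 19 members fell in BN1, 30 in MA9 and 25 in ME, against 24.1%, 23.8% and 23.9% of all genes. These 3 comparisons share the WT libraries. In bulk libraries, fewer cells of a type and less RNA per cell cannot be told apart.

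**Figure D1:**
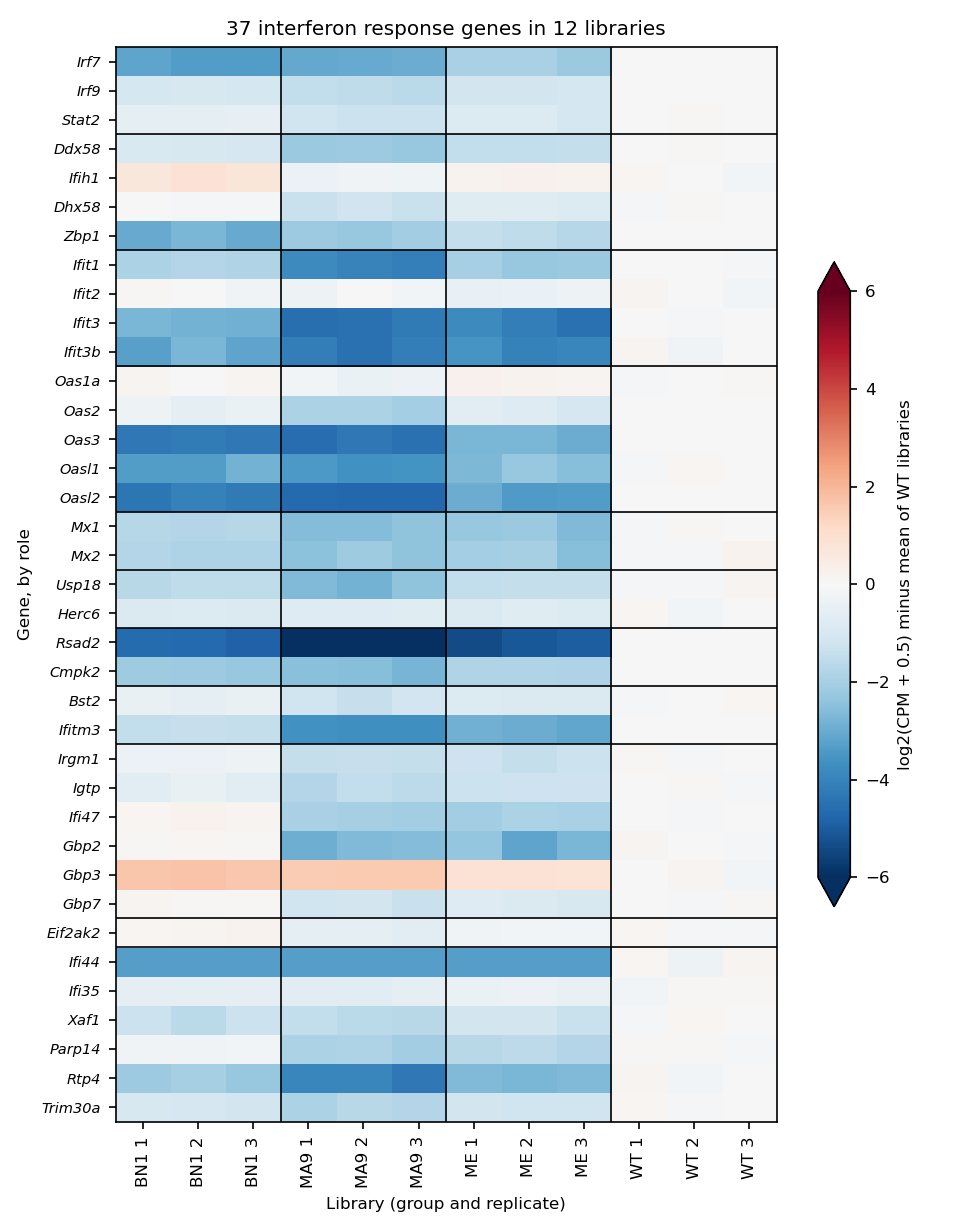
Level of the 37 tested members in each of the 12 libraries, as log2(CPM + 0.5) minus the mean of the 3 WT libraries (colour scale, log2 units), with members in rows by role. Blue fills most of the 9 leukemia columns, deepest in MA9, while Gbp3 is red in all of them and most other GTPase genes stay near the WT level in BN1.

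Summed over the 38 members, the level was 1506.2 ± 9.07 CPM in BN1, 794 ± 10.7 CPM in MA9, 1082 ± 36.9 CPM in ME and 3086 ± 12.9 CPM in WT (SD, n = 3 each). The sums in the leukemias were 48.8%, 25.7% and 35.1% of the WT sum in that order. No leukemia library reached any WT library. MA9 was the lowest of the 4 groups for 32 members and the highest for none, while WT was the highest for 31, BN1 for 6 and ME for 1. The commonest order of the group means, WT above BN1 above ME above MA9, was that of 18 members. Another 8 had the order WT above ME above BN1 above MA9. These counts include Ifi44, tied at 0 in the leukemias, and Isg15, with at most 3 counts in a group. Replicates agreed closely, with a median coefficient of variation over the members of 4.82% in BN1, 7.68% in MA9, 6.87% in ME and 5.98% in WT.

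Summed markers of dendritic, lymphoid, erythroid and neutrophil cells were also lower in every leukemia than in normal marrow. Among the leukemias their order differed from list to list and was not in general that of the members. The summed level of 8 plasmacytoid dendritic cell markers was 29.1 to 31.2 CPM in BN1, 89.6 to 94.2 CPM in MA9, 88.2 to 93.9 CPM in ME and 461 to 479 CPM in WT. Siglech, a defining surface receptor of these cells, averaged 0.03 CPM in BN1, 0.16 CPM in MA9, 0.02 CPM in ME and 110 CPM in WT. Klk1 was at 0 in BN1 and MA9, and Pacsin1 at 0 in MA9, so that Tcf4 and Runx2, which other cells also use, were the only ones of the 8 above 1 CPM in the leukemias. The 7 B cell markers summed to at most 0.881, 18.9 and 1.40 CPM in BN1, MA9 and ME and to at least 1040.5 CPM in WT. The 6 T cell markers summed to at most 1.52, 6.85 and 2.95 CPM in the same order and to at least 125 CPM in WT, and the 6 NK cell markers to at most 0.658, 1.41 and 0.725 CPM and to at least 159 CPM in WT. The 8 erythroid markers summed to 20.3 to 22.04 CPM in BN1, 27.7 to 33.0 CPM in MA9, 3.39 to 3.58 CPM in ME and 33411 to 43398 CPM in WT. For the 8 neutrophil markers the range was 3415 to 3667 CPM in BN1, 265 to 305 CPM in MA9, 253 to 299 CPM in ME and 40982 to 43958 CPM in WT. Monocyte and early myeloid markers ran the other way, except that the monocyte sums of MA9 and WT overlapped. The 8 monocyte and macrophage markers summed to 6617 to 6972 CPM in BN1, 2740 to 2992 CPM in MA9, 3472 to 3810 CPM in ME and 2449 to 2809 CPM in WT, and the 5 early myeloid markers to 20923 to 21572, 10799 to 11344, 16575 to 17286 and 1532 to 1630 CPM in the same order. In both of these lists the sums of BN1 lay above those of ME, and those of ME above those of MA9, without overlap. That is how the leukemias stood in the commonest order of the members. Genes at 0 included Ms4a1, Ebf1 and Ncr1 in MA9, Ms4a1, Pax5, Cd3g, Prf1 and Slc4a1 in ME and Gzma in BN1. The part of cell composition in the lower levels of the interferon-stimulated genes was not tested.

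Many promoters of the members hold a sequence motif that the list did not use. RefSeq start-site windows of the GRCm38.p6 assembly, from 250 bases before to 50 after the start, were at hand for 30 of the 38 members (34 windows). The ISRE-type motif GAAANNGAAA, searched on both strands, was present in 20 of these 34 windows (58.8%), against 3.44% of 32851 windows of the same length over all genes. The interferon-gamma type motif TTCNNNGAA was present in 8 member windows (23.5%), against 8.3% of all windows, and in 2 member windows the motifs overlapped. The upstream part of 3 windows is shown because these genes span the range of behaviour: Rsad2 (chr12:26456453-26456702, minus strand) had the largest fall among members with reads in every group, Gbp3 (chr3:142559794-142560043, plus strand) rose in every leukemia, and Gbp2 (chr3:142620413-142620662, plus strand) separated BN1 from both MLL fusions. Each sequence reads 5′ to 3′ on the gene's strand and ends at the base before the start site, with the ISRE-type matches in capitals.
Rsad2: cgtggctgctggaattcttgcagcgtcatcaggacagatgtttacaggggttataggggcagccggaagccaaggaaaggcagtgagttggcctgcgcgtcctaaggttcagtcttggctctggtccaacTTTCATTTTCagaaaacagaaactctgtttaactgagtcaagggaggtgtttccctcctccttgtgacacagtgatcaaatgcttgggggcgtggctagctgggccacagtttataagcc
Gbp3: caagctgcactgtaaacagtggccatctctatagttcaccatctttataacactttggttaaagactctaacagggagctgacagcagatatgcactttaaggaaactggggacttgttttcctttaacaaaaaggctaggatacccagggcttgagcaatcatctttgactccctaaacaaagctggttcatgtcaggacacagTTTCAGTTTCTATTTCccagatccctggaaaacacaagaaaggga
Gbp2: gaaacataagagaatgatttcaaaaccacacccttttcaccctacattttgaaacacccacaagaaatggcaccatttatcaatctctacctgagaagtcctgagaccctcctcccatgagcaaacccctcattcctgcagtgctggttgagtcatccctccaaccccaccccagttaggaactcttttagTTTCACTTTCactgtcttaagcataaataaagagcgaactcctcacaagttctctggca

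All matches in these 3 sequences lay on the strand opposite to the gene, as TTTCNNTTTC. Gbp3 had 2 overlapping matches, beginning at -45 and -39 from the start site, while Gbp2 had 1 at -59 and Rsad2 1 at -120. Shorter stretches around the matches of other members with large differences are given next, again 5′ to 3′ on the gene's strand with the match in capitals. They are shown so that the near-identical elements of the Ifit genes can be compared with those of the OAS and GTPase genes.
Ifit1 at -104: ttcagTTTCACTTTCcagtc
Ifit1 at -85: ctcagTTTCAGTTTCtcact
Ifit3 at -156: gtaagTTTCACTTTCctctt
Ifit3b at -188: gtaagTTTCACTTTCctctt
Oas3 at -75: gaggaGAAAACGAAAgtgaa
Ifitm3 at 20: tctgaGAAACCGAAActgcc
Gbp7 at -53: tgcagTTTCAGTTTCagttc

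The Ifit3 and Ifit3b elements had the same letters. Of the 18 tested members with a match in a window, 12 fell and 3 rose in BN1 against WT, 17 fell and 1 rose in MA9, and 15 fell and 3 rose in ME. Of the 11 tested members with a window but no match, 9, 10 and 11 fell in that order, and 1 rose in BN1. Of all genes, 40.8%, 40.8% and 40.2% fell and 38.4%, 39.3% and 39.0% rose. Between leukemias, 17 of the 18 with a match and 5 of the 11 without one were higher in BN1 than in MA9 (32.8% of all genes). Those lower in BN1 than in MA9 numbered 0 and 1 (34.9% of all genes). In BN1 against ME, 16 with a match and 2 without one were higher (31.8% of all genes), and 1 and 5 were lower (33.0% of all genes). In MA9 against ME, 13 of the 18 and 7 of the 11 were lower (20.4% of all genes), with nearly equal median log2 fold changes of -0.46 and -0.45. These counts describe letters in a window, and no test was run on them.

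Among the transcription factors, Irf7, the factor that amplifies interferon production, had the largest difference. Irf7 stood at 16.1, 14.2 and 14.1 CPM in BN1, 17.4, 17.6 and 18.6 CPM in MA9, 38.5, 37.9 and 31.6 CPM in ME and 144, 149 and 152 CPM in WT. It was 10.0-fold lower in BN1 than in WT (log2 fold change -3.33 ± 0.07 SE, adjusted p = 6.2e-25), and its log2 fold change was -3.06 in MA9 (adjusted p = 3.5e-24) and -2.04 in ME (adjusted p = 7.3e-21). No leukemia library came near a WT library. Irf9, the DNA-binding subunit of ISGF3, averaged 65.8 ± 3.05 CPM in BN1, 45.6 ± 2.52 CPM in MA9, 63.2 ± 1.30 CPM in ME and 133 ± 2.48 CPM in WT. Stat2, the other interferon-specific subunit, averaged 87.2 ± 3.20, 53.1 ± 2.77 and 68.5 ± 6.42 CPM in BN1, MA9 and ME and 128 ± 5.26 CPM in WT. Both fell in all 3 leukemias, with log2 fold changes from -1.55 to -0.55 (largest adjusted p = 2.2e-09).

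The cytosolic sensors did not move as a block. Ddx58, which encodes the RNA helicase RIG-I, averaged 46.7 ± 1.49 CPM in BN1, 19.4 ± 0.496 CPM in MA9, 33.4 ± 0.859 CPM in ME and 92.3 ± 3.94 CPM in WT, and fell in every leukemia. Ifih1, which encodes the related sensor MDA5, had 70.5, 78.4 and 71.8 CPM in BN1, 33.4, 36.9 and 36.3 CPM in MA9, 49.5, 51.1 and 50.5 CPM in ME and 46.8, 44.3 and 38.6 CPM in WT. Ifih1 was thus above WT in BN1 (log2 fold change 0.76 ± 0.07 SE, adjusted p = 3.1e-11) and in ME (0.22 ± 0.07, adjusted p = 0.0053) and below it in MA9 (-0.28 ± 0.07, adjusted p = 6e-04). The call in ME was lost without WT replicate 3 (adjusted p = 0.071). Dhx58, the third helicase of the family (LGP2), averaged 49.4 ± 2.57 CPM in BN1, 20.6 ± 1.08 CPM in MA9, 29.9 ± 1.16 CPM in ME and 51.5 ± 3.34 CPM in WT. It fell in MA9 and ME, and its BN1 libraries overlapped WT (adjusted p = 0.41). Zbp1, a sensor of Z-form nucleic acids that can start necroptosis, had 5.10, 6.16 and 4.94 CPM in BN1, 9.55, 8.93 and 9.91 CPM in MA9, 16.1, 15.3 and 13.2 CPM in ME and 43.5, 44.1 and 45.7 CPM in WT. Here BN1, not MA9, was the lowest group, with a log2 fold change of -3.04 against WT (adjusted p = 1.9e-20).

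**Figure D2:**
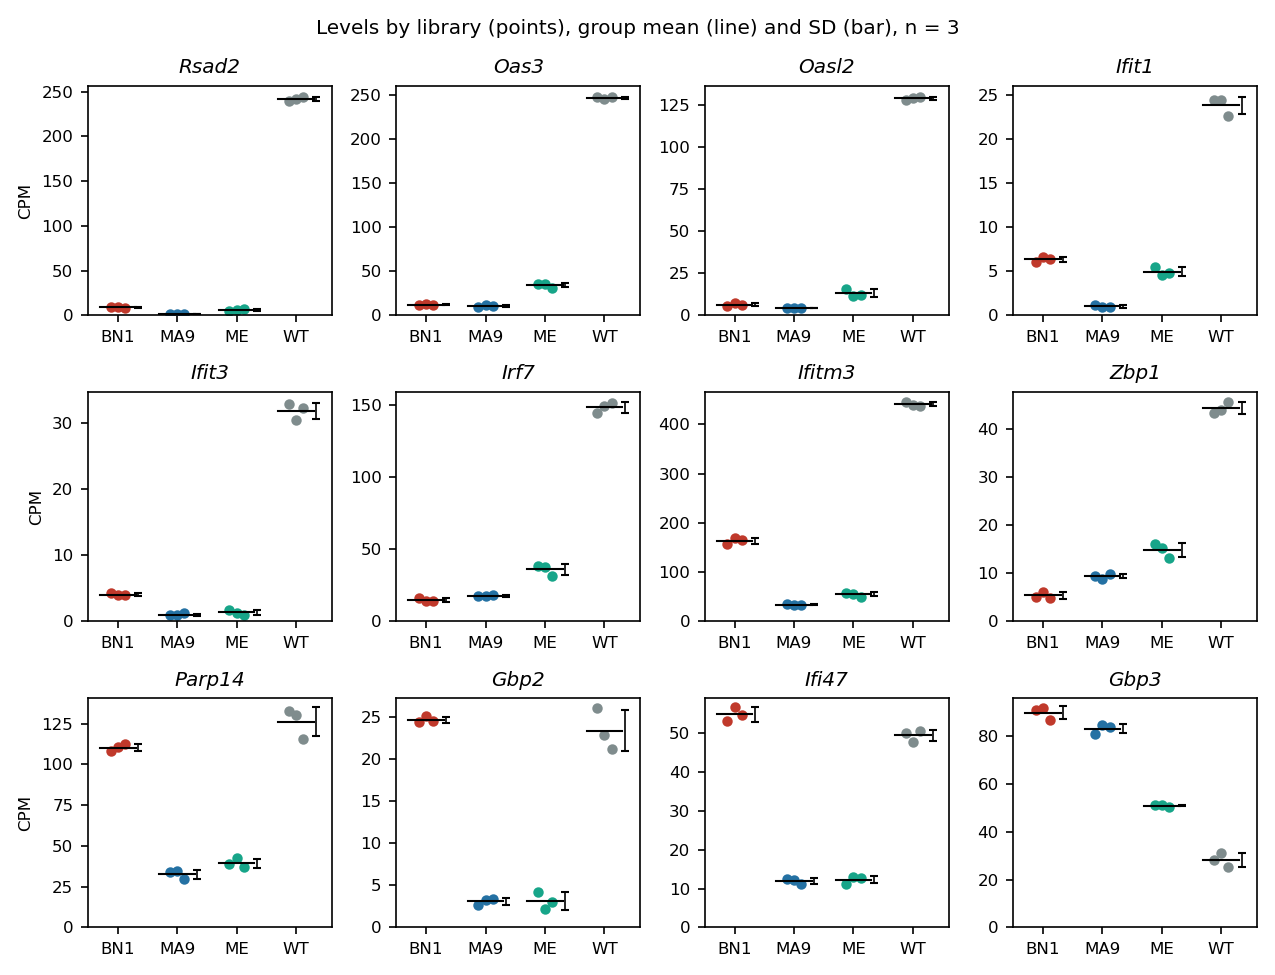
Level in CPM (y axis, own linear scale per panel) of 12 members in the 3 libraries of BN1, MA9, ME and WT; points are libraries, bars the group mean and lines 1 SD. WT lies above all leukemia libraries in the panels of Rsad2, the OAS and Ifit genes, Irf7, Ifitm3 and Zbp1, whereas BN1 overlaps WT for Gbp2 and all leukemia libraries exceed WT for Gbp3.

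Rsad2 had the largest fall in each leukemia among members with reads in every group. Rsad2 encodes viperin, an enzyme that makes a chain-terminating nucleotide against viral polymerases. It had 9.42, 9.18 and 8.004 CPM in BN1, 1.46, 1.73 and 1.41 CPM in MA9, 5.37, 6.53 and 7.33 CPM in ME and 239.8, 242 and 244 CPM in WT. Its level was 27.3-fold lower in BN1 (log2 fold change -4.77 ± 0.07 SE, adjusted p = 2.3e-28), 157-fold lower in MA9 (-7.29 ± 0.10, adjusted p = 9.1e-30) and 37.9-fold lower in ME (-5.24 ± 0.08, adjusted p = 1.3e-28) than in WT. Cmpk2, the mitochondrial nucleotide kinase encoded beside it, averaged 25.3 ± 1.27 CPM in BN1, 18.8 ± 2.06 CPM in MA9, 33.1 ± 0.973 CPM in ME and 118 ± 2.72 CPM in WT. Its log2 fold changes were -2.22, -2.65 and -1.83, all called.

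The OAS enzymes make oligoadenylates that activate RNase L when double-stranded RNA is present. Oas3 had 12.01, 12.9 and 12.3 CPM in BN1, 9.85, 12.04 and 10.5 CPM in MA9, 36.0, 36.0 and 31.3 CPM in ME and 249, 246 and 248 CPM in WT. The log2 fold change of Oas3 against WT was -4.32 ± 0.07 in BN1, -4.51 ± 0.07 in MA9 and -2.84 ± 0.06 in ME (SE; largest adjusted p = 4.8e-25). Oasl2, an OAS-like protein with ubiquitin-like domains, followed the same order of groups, with 5.84, 7.29 and 6.28 CPM in BN1, 4.67, 4.49 and 4.52 CPM in MA9, 15.8, 11.8 and 12.3 CPM in ME and 128, 129.5 and 129.8 CPM in WT. Oasl1, which in the mouse represses translation of Irf7 mRNA, had 2.34, 2.38 and 3.64 CPM in BN1, 2.16, 1.86 and 1.94 CPM in MA9, 4.01, 5.44 and 4.50 CPM in ME and 26.1, 30.8 and 29.1 CPM in WT. Both fell in each leukemia, and the log2 fold change nearest to 0 was -2.62, for Oasl1 in ME (adjusted p = 5.9e-16). Oas2 fell less, with means of 75.0 ± 6.47 CPM in BN1, 25.6 ± 1.34 CPM in MA9, 56.8 ± 6.60 CPM in ME and 99.5 ± 3.04 CPM in WT.

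Oas1a did not share the fall of its neighbours. It had 85.1, 78.0 and 85.6 CPM in BN1, 68.1, 58.7 and 60.2 CPM in MA9, 92.2, 90.1 and 87.4 CPM in ME and 73.0, 76.4 and 82.2 CPM in WT. Oas1a rose in ME (log2 fold change 0.22 ± 0.06 SE, adjusted p = 0.0016) and fell in MA9 (-0.31 ± 0.06, adjusted p = 5e-05), and its BN1 libraries overlapped WT (0.10 ± 0.06, adjusted p = 0.11). The BN1 difference passed the threshold under upper-quartile scaling (adjusted p = 0.029) and without BN1 replicate 2 or WT replicate 3 (adjusted p = 0.028 and 0.038). The Oas1a transcript is 97.6% identical to that of Oas1g over 1861 bases, and the treatment of reads that match both is unknown here, so the split between these copies is uncertain. Oas1g, not a member, averaged 36.3 CPM in BN1, 23.0 CPM in MA9, 52.1 CPM in ME and 25.1 CPM in WT.

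The Ifit proteins bind foreign RNA ends and block their translation. Ifit1 had 6.05, 6.66 and 6.36 CPM in BN1, 1.21, 0.992 and 0.923 CPM in MA9, 5.51, 4.53 and 4.78 CPM in ME and 24.4, 24.4 and 22.7 CPM in WT. Ifit3, whose human counterpart is a partner of IFIT1, had 4.28, 3.96 and 3.94 CPM in BN1, 0.904, 0.949 and 1.21 CPM in MA9, 1.79, 1.31 and 0.945 CPM in ME and 32.8, 30.4 and 32.2 CPM in WT. Against WT, the log2 fold change of Ifit1 was -1.91 in BN1, -4.51 in MA9 and -2.27 in ME. That of Ifit3 was -2.97, -4.95 and -4.54. In both genes the groups did not overlap with WT, and the largest adjusted p was 5.8e-15.

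Ifit3b, a near copy of Ifit3, was low in the leukemias, with 1.07, 1.71 and 1.15 CPM in BN1, 0.352, 0.173 and 0.340 CPM in MA9 and 0.774, 0.408 and 0.5001 CPM in ME, against 16.3, 12.4 and 14.7 CPM in WT. Its transcript is 97.8% identical to that of Ifit3 over 1700 bases, so the split between the pair is uncertain, although both were lower in all 3 leukemias. Ifit2, whose product promotes apoptosis, was the exception in the family. It had 30.2, 27.7 and 24.9 CPM in BN1, 23.3, 28.2 and 25.1 CPM in MA9, 20.6, 21.8 and 22.9 CPM in ME and 32.2, 28.5 and 25.3 CPM in WT. BN1 and MA9 overlapped WT (adjusted p = 0.55 and 0.097), and ME fell by 0.40 on the log2 scale (adjusted p = 0.00036). The MA9 difference of -0.17 passed the threshold with RLE size factors (adjusted p = 0.028), with DESeq2 (0.039), without MA9 replicate 2 (0.027) and without WT replicate 3 (0.023).

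**Figure D3:**
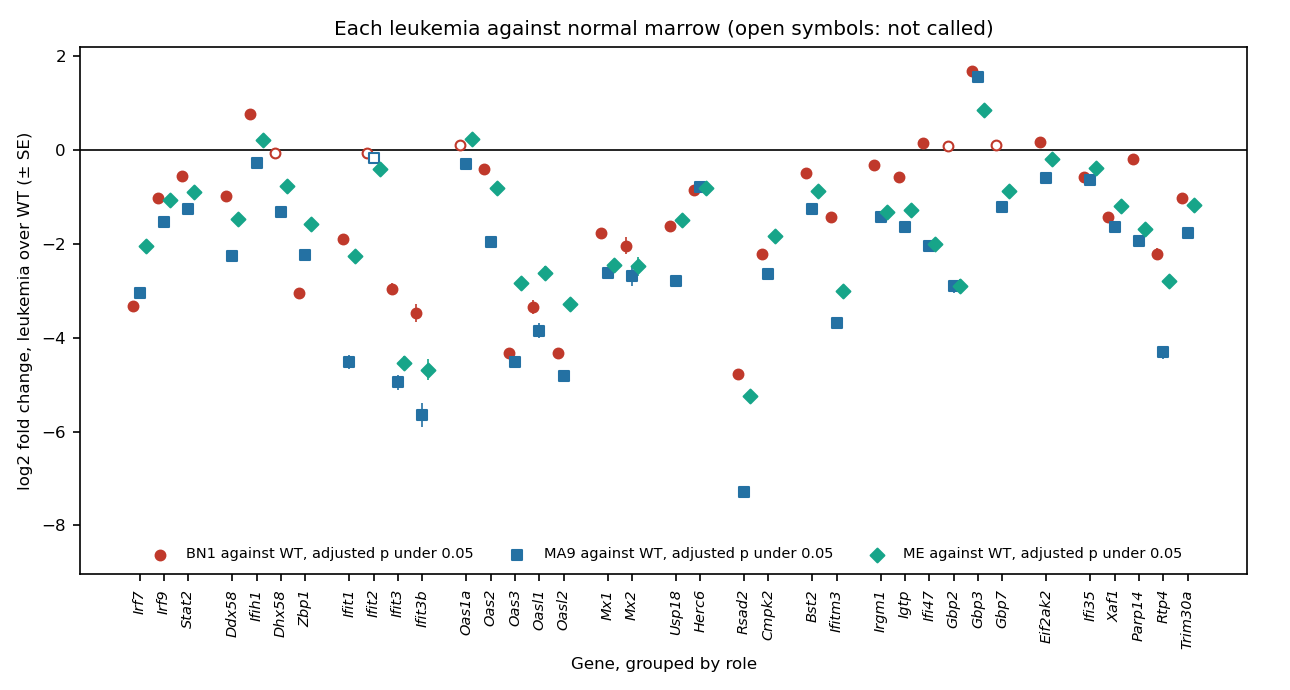
Log2 fold change of 36 members (x axis, by role, with Isg15 and Ifi44 left out) against WT in BN1, MA9 and ME (y axis, log2 units). Lines show 1 SE, and open symbols mark differences that were not called. Most symbols lie below 0, MA9 lowest for most members, and Gbp3 lies above 0 in all 3 leukemias, at 1.67, 1.56 and 0.85.

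The 6 interferon-inducible GTPases, which guard the cell against intracellular bacteria and parasites, split in BN1 against WT, where 2 rose, 2 fell and 2 were not called, shares of 33.3% each way beside 38.4% and 40.8% of all genes. In MA9 and in ME 5 fell and 1 rose, shares of 83.3% and 16.7%. Of all genes, 40.8% fell and 39.3% rose in MA9, and 40.2% fell and 39.0% rose in ME. Their sum had a median of 313 CPM in BN1, 159 CPM in MA9, 139.8 CPM in ME and 264 CPM in WT. Without Gbp3 the order of BN1 and WT turned, with medians of 222.6 CPM in BN1, 76.6 CPM in MA9, 89.3 CPM in ME and 238 CPM in WT over the other 5 genes. Gbp3 had 90.8, 91.8 and 86.6 CPM in BN1, 81.0, 84.6 and 83.7 CPM in MA9, 51.0, 51.0 and 50.5 CPM in ME and 28.0, 31.2 and 25.4 CPM in WT. It was the only member that rose in all 3 leukemias, by 3.18-fold in BN1 (log2 fold change 1.67 ± 0.06 SE, adjusted p = 1.6e-19), 2.95-fold in MA9 (1.56 ± 0.06, adjusted p = 9.9e-19) and 1.80-fold in ME (0.85 ± 0.06, adjusted p = 1.8e-12). Gbp2, encoded in the same cluster, had 24.4, 25.1 and 24.5 CPM in BN1, 2.66, 3.24 and 3.40 CPM in MA9, 4.21, 2.18 and 3.001 CPM in ME and 26.04, 22.9 and 21.2 CPM in WT. Its BN1 libraries overlapped WT (adjusted p = 0.55), and it was 7.49-fold lower in ME than in WT (log2 fold change -2.91 ± 0.15 SE, adjusted p = 3.6e-16), with the same log2 fold change in MA9.

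Ifi47, an immunity-related GTPase, had 53.1, 56.8 and 54.6 CPM in BN1, 12.5, 12.3 and 11.1 CPM in MA9, 11.2, 13.1 and 12.7 CPM in ME and 50.1, 47.7 and 50.5 CPM in WT. It fell by 2.05 and 2.005 on the log2 scale in MA9 and ME. Its rise in BN1 was slight (log2 fold change 0.15 ± 0.07 SE, adjusted p = 0.04) and was lost with RLE size factors (adjusted p = 0.17), with DESeq2 (0.19), with a minimum of 1 CPM in 3 libraries (0.056) and without BN1 replicate 2 (0.089), BN1 replicate 3 (0.055) or WT replicate 2 (0.12). Gbp7 averaged 64.2 ± 3.07 CPM in BN1, 25.7 ± 1.83 CPM in MA9, 32.5 ± 2.02 CPM in ME and 59.8 ± 3.27 CPM in WT. It fell in MA9 and ME, and its BN1 libraries overlapped WT (adjusted p = 0.15, or 0.047 under upper-quartile scaling). Irgm1 and Igtp, the regulatory members of the immunity-related family, fell in every leukemia. Irgm1 averaged 53.5 ± 0.951 CPM in BN1, 24.8 ± 0.578 CPM in MA9, 26.8 ± 1.72 CPM in ME and 67.2 ± 2.91 CPM in WT. Igtp averaged 25.7 ± 2.15 CPM in BN1, 12.3 ± 1.08 CPM in MA9, 15.8 ± 0.277 CPM in ME and 38.5 ± 1.49 CPM in WT.

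Eif2ak2 encodes PKR, the kinase that halts translation when it binds double-stranded RNA. It had 77.2, 77.7 and 81.1 CPM in BN1, 47.7, 46.9 and 44.8 CPM in MA9, 59.9, 63.2 and 62.2 CPM in ME and 75.2, 67.9 and 68.0 CPM in WT. It rose in BN1 by 1.12-fold (log2 fold change 0.16 ± 0.05 SE, adjusted p = 0.0096) and fell in MA9 (-0.60 ± 0.06, adjusted p = 1.9e-10) and ME (-0.19 ± 0.06, adjusted p = 0.0033). The rise was lost with RLE size factors (adjusted p = 0.065), with DESeq2 (0.071) and without WT replicate 3 (0.051). Under RLE size factors and under DESeq2 the members that rose in BN1 numbered 2 in place of 4, namely Gbp3 and Ifih1.

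Ifitm3, which stops enveloped viruses in endosomes, was the most abundant member per length of transcript in every group, at 241 CPM per kilobase of exon in BN1, 50.1 in MA9, 80.7 in ME and 650.2 in WT. By library it had 156, 169 and 165 CPM in BN1, 34.7, 33.6 and 33.6 CPM in MA9, 58.4, 55.4 and 50.3 CPM in ME and 445, 439.6 and 438 CPM in WT. Its log2 fold change was -1.43 ± 0.05 in BN1, -3.70 ± 0.06 in MA9 and -3.01 ± 0.05 in ME (SE, largest adjusted p = 1.5e-20). A stretch of 356 bases of Ifitm3 is 91.6% identical to Gm6885, a gene with no row in the table, so the counts of Ifitm3 carry some uncertainty. Bst2, or tetherin, which holds budding virions at the cell surface, came next per length at 72.2, 42.4, 55.2 and 101 CPM per kilobase in BN1, MA9, ME and WT. It averaged 65.2 ± 1.75 CPM in BN1, 38.3 ± 3.10 CPM in MA9, 49.9 ± 0.860 CPM in ME and 91.4 ± 8.03 CPM in WT and fell in each leukemia.

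The remaining members were lower in all 3 leukemias. Parp14, an ADP-ribosyltransferase, had 108, 110.4 and 112 CPM in BN1, 33.9, 34.3 and 29.6 CPM in MA9, 38.8, 42.4 and 36.8 CPM in ME and 133, 130.3 and 116 CPM in WT, so its fall was slight in BN1 (log2 fold change -0.20, adjusted p = 0.0041) and large in MA9 and ME (-1.95 and -1.68). Rtp4, a receptor transport protein with antiviral activity, had 8.97, 10.1 and 8.31 CPM in BN1, 2.31, 2.33 and 1.70 CPM in MA9, 6.34, 5.76 and 6.17 CPM in ME and 47.1, 36.98 and 42.3 CPM in WT. Against WT its log2 fold change was -2.21 in BN1, -4.31 in MA9 and -2.79 in ME. Mx1, a dynamin-like GTPase against influenza virus that is defective in C57BL/6 mice, averaged 12.02 ± 0.262 CPM in BN1, 6.69 ± 0.522 CPM in MA9, 7.49 ± 1.25 CPM in ME and 41.1 ± 1.59 CPM in WT. Its paralog Mx2 averaged 2.13 ± 0.112, 1.35 ± 0.248 and 1.55 ± 0.431 CPM in BN1, MA9 and ME and 8.82 ± 1.10 CPM in WT. A stretch of 921 bases of Mx2 is 94.8% identical to Mx1, so the lower of these counts is uncertain.

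Usp18, which removes ISG15 from proteins and dampens receptor signalling, averaged 7.90 ± 0.433 CPM in BN1, 3.54 ± 0.604 CPM in MA9, 8.69 ± 0.189 CPM in ME and 24.5 ± 2.37 CPM in WT. Herc6, the mouse ligase for ISG15, was called between no pair of leukemias, with 20.4 ± 0.324 CPM in BN1, 21.7 ± 0.566 CPM in MA9, 21.2 ± 1.27 CPM in ME and 37.2 ± 3.27 CPM in WT. Trim30a, a ubiquitin ligase that restrains NF-kB signalling, averaged 86.0 ± 4.16 CPM in BN1, 50.8 ± 3.84 CPM in MA9, 77.4 ± 2.78 CPM in ME and 174 ± 11.9 CPM in WT. A stretch of 1719 bases of Trim30a is 90.1% identical to Trim30d, so the split between these genes is uncertain. Xaf1, an antagonist of the apoptosis inhibitor XIAP, averaged 10.5 ± 1.33, 9.05 ± 0.753 and 12.3 ± 1.30 CPM in BN1, MA9 and ME and 28.3 ± 2.29 CPM in WT. Ifi35 changed least of these, with 32.0 ± 0.748 CPM in BN1, 31.1 ± 0.796 CPM in MA9, 36.5 ± 1.07 CPM in ME and 48.2 ± 4.24 CPM in WT.

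Ifi44 had no read in any of the 9 leukemia libraries and 4.93, 3.55 and 5.07 CPM in WT. With a floor of 3 counts over a group, its level was at least 110-fold lower in BN1, at least 96.3-fold lower in MA9 and at least 91.8-fold lower in ME than in WT. The medians over the members were the same with Ifi44 at these bounds. Isg15, the ubiquitin-like modifier that gives the ISG15 system its name, had 1 count in BN1, 0 in MA9, 1 in ME and 3 in WT over the 3 libraries of each group. All of these lie at or under the floor, so no fold change was computed. The Isg15 transcript matches that of a gene annotated at another locus at 95.2% identity over 482 bases, and that gene has no row in the table, so the counts of Isg15 are uncertain.

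Between the leukemias, most members were higher in BN1 than in MA9. In BN1 against MA9, 29 of the 37 members were higher and 2 lower, where 32.8% of all genes tested were higher and 34.9% lower. The median log2 fold change over the members was 0.77, and over all genes -0.01. Gbp2 was 7.92-fold higher in BN1 (log2 fold change 2.99 ± 0.15 SE, adjusted p = 2.6e-16), Ifit1 6.09-fold (2.61 ± 0.17, adjusted p = 9.1e-14), Rsad2 5.73-fold (2.52 ± 0.14, adjusted p = 1.6e-15) and Ifitm3 4.82-fold (2.27 ± 0.05, adjusted p = 1.5e-23). The libraries of BN1 and MA9 did not overlap in any of these. The members lower in BN1 were Zbp1 (log2 fold change -0.81 ± 0.11 SE, adjusted p = 4.8e-07) and Irf7 (-0.27 ± 0.08, adjusted p = 0.0048). Oas3 was called at a log2 fold change of 0.19 (adjusted p = 0.048), and the call was lost without BN1 replicate 2 or 3, MA9 replicate 1 or 3, ME replicate 1 or WT replicate 2 or 3 (adjusted p = 0.052 to 0.22), under upper-quartile scaling (0.11), with no filter on low counts (0.059) and where only the 2 groups entered the fit (0.099). The call of Oasl1 (0.50) was lost without BN1 replicate 3 (0.27), MA9 replicate 2 (0.073) or MA9 replicate 3 (0.057) and in the fit of the 2 groups alone (0.054), and that of Mx2 (0.64) without MA9 replicate 1 (0.058) or MA9 replicate 3 (0.057). Xaf1 (0.22, adjusted p = 0.097) was called without BN1 replicate 2 (0.021).

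BN1 against ME was more mixed. Here 23 members were higher and 7 lower, where 31.8% of all genes were higher and 33.0% lower, and the median log2 fold change was 0.39. The GTPases all stood higher in BN1, 6 of 6, led by Gbp2 at 7.90-fold (log2 fold change 2.98 ± 0.15 SE, adjusted p = 3.7e-16) and Ifi47 at 4.45-fold (2.15 ± 0.08, adjusted p = 1e-19). Ifitm3 and Parp14 were 2.99-fold and 2.80-fold higher in BN1 (log2 fold changes 1.58 and 1.48). The 4 Ifit genes were also all higher. The 7 members lower in BN1 were Oas3 (log2 fold change -1.48 ± 0.07 SE, adjusted p = 2.3e-16), Zbp1 (-1.47 ± 0.11, adjusted p = 2.7e-12), Irf7 (-1.29 ± 0.08, adjusted p = 1.8e-14), Oasl2 (-1.04 ± 0.10, adjusted p = 1.2e-09), Oasl1 (-0.73), Cmpk2 (-0.39) and Ifi35 (-0.19). The call of Trim30a (log2 fold change 0.15) was lost without BN1 replicate 1 or 2 or ME replicate 2 or 3 (adjusted p = 0.059 to 0.12), that of Ifi35 without BN1 replicate 2 (0.061) or ME replicate 2 (0.064), and that of Ifit1 (0.36) without ME replicate 2 (0.076). Without the third ME library, 22 members were higher and 8 lower, Xaf1 being added to the lower ones (adjusted p = 0.026).

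**Figure D4:**
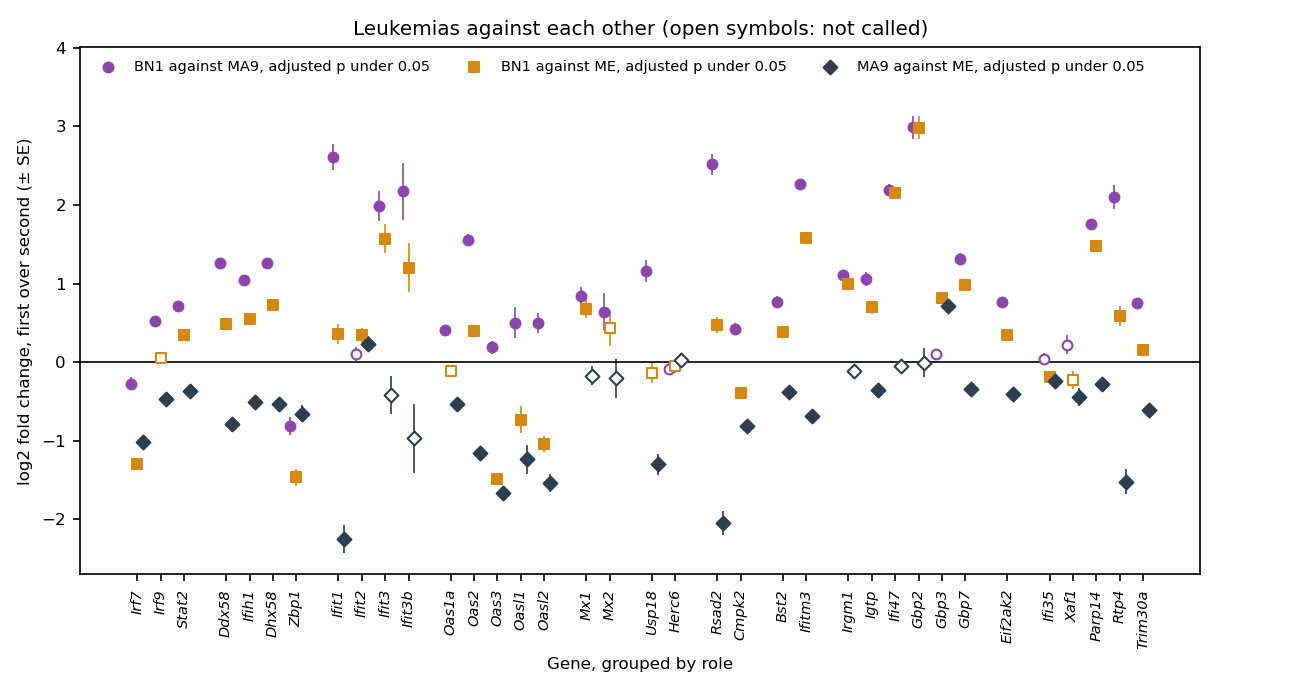
Log2 fold change (y axis, log2 units) of 36 members (x axis, by role, with Isg15 and Ifi44 left out) in BN1 against MA9, BN1 against ME and MA9 against ME. Lines show 1 SE, and open symbols mark differences that were not called. Gbp2 lies near 3 in both comparisons of BN1 and at 0 in MA9 against ME, while Oas3, Zbp1 and Irf7 lie below 0 in BN1 against ME.

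MA9 against ME gave 2 members higher and 26 lower, where 20.2% of all genes were higher and 20.4% lower, with a median log2 fold change of -0.47. Rsad2 was 4.13-fold lower in MA9 (log2 fold change -2.05 ± 0.15 SE, adjusted p = 3.5e-12), Oas3 3.18-fold (-1.67 ± 0.08, adjusted p = 1.1e-16), Oasl2 2.91-fold (-1.54 ± 0.11, adjusted p = 5.9e-12) and Rtp4 2.86-fold (-1.52 ± 0.16, adjusted p = 7.6e-09). The OAS family was lower in MA9 in 5 of 5 genes. Gbp3 went the other way, 1.63-fold higher in MA9 (log2 fold change 0.71 ± 0.06 SE, adjusted p = 6.5e-11). Ifit2 was the other member higher in MA9 (0.23 ± 0.09, adjusted p = 0.048), a call lost under DESeq2 (0.059) and without BN1 replicate 1 or 2, any single MA9 or ME library other than MA9 replicate 1, or WT replicate 2 (0.05 to 0.27). Without the third ME library, 1 member was higher and 27 lower, Mx1 being added to the lower ones (adjusted p = 0.045). These comparisons share libraries, so the values of a group enter several of them. The sums of neutrophil, monocyte and early myeloid markers given above were also highest in BN1 among the leukemias, and their part in the differences between leukemias was not tested. Without Tcf4 and Runx2, the other 6 plasmacytoid dendritic cell markers summed to at most 0.411 CPM in BN1, 0.703 CPM in MA9 and 0.58 CPM in ME, with overlapping ranges, and to at least 269.8 CPM in WT.

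Members that lie side by side in the genome did not always move together. The cluster of Gbp7, Gbp3 and Gbp2 spans 107.7 kb of chr3 (142530342 to 142638008, GRCm38), and holds the member that rose in all leukemias beside 2 that fell in MA9 and ME. Oas2, Oas3 and Oas1a lie within 177.2 kb of chr5 (120730333 to 120907521), where Oas3 had a log2 fold change of -2.84 in ME and Oas1a one of 0.22. Ifit2, Ifit3, Ifit3b and Ifit1 lie within 99.3 kb of chr19 (34550694 to 34650009). Rsad2 and Cmpk2 (37.1 kb of chr12), Oasl2 and Oasl1 (41 kb of chr5) and Mx1 and Mx2 (113.9 kb of chr16) fell as pairs in every leukemia.

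Transcripts of the interferons themselves had few or no counts. Of 12 ligand genes only Ifnz, a type I interferon of the mouse, had enough reads to be tested, with 44 counts in BN1, 21 in MA9, 28 in ME and 5 in WT over the 3 libraries of each group. Ifnz ran from 0.405 to 0.843 CPM in BN1, 0.292 to 0.402 CPM in MA9, 0.389 to 0.544 CPM in ME and 0 to 0.149 CPM in WT. Its log2 fold changes against WT were 2.68 ± 0.63, 1.82 ± 0.72 and 2.29 ± 0.68 SE in BN1, MA9 and ME (adjusted p = 4e-04, 0.023 and 0.0033). As Ifnz passed the filter on counts only through leukemia libraries, these values are no independent evidence of a rise. Ifnb1, the interferon-beta gene, had 1 count in WT and 0 in each leukemia. Ifng, the interferon-gamma gene of T and NK cells, had 1 count in BN1, 1 in MA9, 0 in ME and 37 in WT.

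The receptor and signalling genes, which are no members, were present in all groups. Of 11 such genes, 3 rose and 7 fell in BN1 against WT, 3 rose and 8 fell in MA9, and 4 rose and 6 fell in ME. The falling shares were 63.6% in BN1, 72.7% in MA9 and 54.5% in ME, beside 40.8%, 40.8% and 40.2% of all genes. The rising shares were 27.3%, 27.3% and 36.4%, beside 38.4%, 39.3% and 39.0%, so that of ME lay near the share of all genes. Each share rests on only 11 genes. Ifnar1 averaged 116 ± 3.50 CPM in BN1, 103 ± 1.62 CPM in MA9, 96.6 ± 3.51 CPM in ME and 131 ± 8.30 CPM in WT, and fell in each (log2 fold changes -0.17, -0.34 and -0.44; largest adjusted p = 0.0032). Ifnar2 averaged 158 ± 2.28, 159 ± 5.44 and 166 ± 4.67 CPM in BN1, MA9 and ME and 143 ± 5.27 CPM in WT, and rose slightly in each (0.15, 0.15 and 0.22; largest adjusted p = 0.0048). Jak1 fell to 241 ± 4.04 CPM in BN1, 179.6 ± 7.78 CPM in MA9 and 189.7 ± 4.57 CPM in ME, against 422 ± 15.6 CPM in WT. Ifngr1, the ligand-binding chain of the gamma receptor, rose to 774 ± 17.8 CPM in BN1, 530.3 ± 11.4 CPM in MA9 and 636 ± 32.9 CPM in ME, against 195 ± 5.84 CPM in WT.

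Among 7 other interferon regulatory factors, 6 fell in BN1, 5 in MA9 and 5 in ME against WT (40.8%, 40.8% and 40.2% of all genes), and 1 rose in MA9. Irf1, a factor induced by both kinds of interferon, averaged 39.0 ± 2.90 CPM in BN1, 39.0 ± 4.15 CPM in MA9, 46.6 ± 0.399 CPM in ME and 143 ± 2.18 CPM in WT (log2 fold changes -1.88, -1.88 and -1.62; largest adjusted p = 5.5e-19). Irf8, a factor of monocyte and dendritic cell development, averaged 316 ± 15.9, 272 ± 12.4 and 216 ± 8.24 CPM in BN1, MA9 and ME and 402 ± 17.2 CPM in WT. Irf4, used by lymphocytes and plasma cells, averaged 2.75 ± 0.323 CPM in BN1, 2.45 ± 0.372 CPM in MA9, 0.286 ± 0.176 CPM in ME and 82.6 ± 5.24 CPM in WT, beside the B cell marker sums given above.

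The 14 genes that sense nucleic acids or relay that signal towards interferon induction split between directions. In BN1 against WT 7 rose and 6 fell, shares of 50% and 42.9% that lie near the 38.4% and 40.8% of all genes. In MA9 4 rose and 9 fell, and in ME likewise, shares of 28.6% and 64.3% beside 39.3% and 40.8% of all genes in MA9 and 39.0% and 40.2% in ME. Tlr7, the endosomal receptor of single-stranded RNA, had 77.5, 83.1 and 73.8 CPM in BN1, 6.53, 6.69 and 7.29 CPM in MA9, 20.02, 24.3 and 20.4 CPM in ME and 41.7, 37.5 and 40.9 CPM in WT, so that BN1 lay above WT (log2 fold change 0.96 ± 0.07 SE, adjusted p = 7.8e-13) and MA9 and ME below it (-2.55 and -0.89). Unc93b1, the chaperone of that receptor, had the same order, at 747 ± 15.2 CPM in BN1, 275 ± 7.64 CPM in MA9, 313 ± 5.71 CPM in ME and 538 ± 18.8 CPM in WT. Tlr3, the receptor of double-stranded RNA, averaged 3.02 ± 0.329 CPM in BN1, 0 CPM in MA9, 0.167 ± 0.0640 CPM in ME and 1.97 ± 0.217 CPM in WT. With no read in MA9, it was at least 41.7-fold lower there than in WT. Ikbke, a kinase that activates Irf3 and Irf7, averaged 209.8 ± 9.25 CPM in BN1, 61.9 ± 0.697 CPM in MA9, 153 ± 10.8 CPM in ME and 53.1 ± 2.15 CPM in WT and rose in all 3. Cgas, the sensor of cytosolic DNA, also rose in all 3, to 57.7 ± 1.17, 53.3 ± 1.79 and 46.4 ± 2.09 CPM in BN1, MA9 and ME, against 25.6 ± 1.54 CPM in WT. Its partner Sting1 averaged 39.6 ± 1.49 CPM in BN1, 112 ± 0.833 CPM in MA9, 25.9 ± 0.506 CPM in ME and 62.9 ± 2.45 CPM in WT, rising in MA9 (log2 fold change 0.84, adjusted p = 2.5e-14) and falling in BN1 and ME (-0.67 and -1.28).

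Of 11 inhibitors of the pathway and nucleic acid enzymes linked to it, 8 fell in each leukemia against WT (72.7%, beside 40.2% to 40.8% of all genes), while 2 rose in BN1, 2 in MA9 and 3 in ME. Socs1, a feedback inhibitor of JAK kinases that interferon induces, averaged 1.73 ± 0.116 CPM in BN1, 4.11 ± 0.392 CPM in MA9, 3.89 ± 0.408 CPM in ME and 16.0 ± 2.45 CPM in WT. Samhd1, which depletes nucleotides, averaged 279 ± 10.6, 135 ± 6.79 and 161 ± 7.89 CPM in BN1, MA9 and ME and 812 ± 5.25 CPM in WT, and the exonuclease gene Isg20 4.03 ± 0.341, 6.13 ± 0.471 and 5.58 ± 0.0800 CPM against 83.3 ± 6.91 CPM in WT. Rnf125, a ubiquitin ligase that marks RIG-I for degradation, was the gene that rose most, to 101 ± 3.94 CPM in BN1, 116 ± 6.35 CPM in MA9 and 68.9 ± 4.32 CPM in ME, against 24.1 ± 2.18 CPM in WT (log2 fold changes 2.07, 2.26 and 1.51).

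The interferon-gamma target genes that are no members were for the most part higher in BN1 than in the MLL fusion leukemias, as were the GTPases. Of 14 listed, 13 were tested. In BN1 against WT 5 rose and 5 fell, shares of 38.5% each that are near the 38.4% and 40.8% of all genes. In MA9 2 rose and 11 fell (84.6% fell, beside 40.8% of all genes). In ME 2 rose and 10 fell (76.9% fell, beside 40.2% of all genes). In BN1 against MA9 9 were higher and 2 lower (69.2% and 15.4%, beside 32.8% and 34.9% of all genes). In BN1 against ME 10 were higher and 0 lower (76.9% and 0%, beside 31.8% and 33.0% of all genes), and 3 did not pass the test in edgeR. Gbp5, a guanylate-binding protein that promotes inflammasome assembly, had 53.2, 53.8 and 49.2 CPM in BN1, 3.82, 4.53 and 3.64 CPM in MA9, 3.72, 2.58 and 2.11 CPM in ME and 11.3, 9.62 and 11.8 CPM in WT. It was 4.77-fold higher in BN1 than in WT (log2 fold change 2.26 ± 0.11 SE, adjusted p = 7.4e-17) and 12.96-fold and 18.4-fold higher in BN1 than in MA9 and ME. Cxcl10, a chemokine for T cells, averaged 11.8 ± 0.619 CPM in BN1, 1.03 ± 0.0789 CPM in MA9, 1.84 ± 0.177 CPM in ME and 3.87 ± 0.299 CPM in WT. Cd274, which encodes PD-L1, averaged 31.3 ± 1.31 CPM in BN1, 5.68 ± 1.04 CPM in MA9, 7.30 ± 0.543 CPM in ME and 14.9 ± 0.478 CPM in WT. Both rose in BN1 and fell in MA9 and ME against WT. Gbp4 fell in all 3 leukemias, with 0.236 ± 0.0885, 0.418 ± 0.124 and 0.183 ± 0.101 CPM in BN1, MA9 and ME and 28.1 ± 0.911 CPM in WT. Ciita, the master regulator of MHC class II genes, averaged 0.230 ± 0.0832 CPM in BN1, 0.133 ± 0.191 CPM in MA9, 0.0336 ± 0.0296 CPM in ME and 58.4 ± 2.81 CPM in WT, the largest fall of the list in each leukemia, beside the B cell marker sums given above. Gbp8 averaged 0.0648 ± 0.0793 CPM in BN1, 0.382 ± 0.140 CPM in MA9, 0.0947 ± 0.0968 CPM in ME and 10.3 ± 0.929 CPM in WT and also fell in each.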

How the data were processed

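Gene-level read counts were used as the authors deposited them, with whole numbers per gene symbol. Per the submitters' processing notes, the tools were HISAT2, featureCounts and DESeq2 and the build mm10; versions, gene annotation, strand setting and the treatment of multiply matching reads are not given in the sources here. Per the labels' protocols, RNA was purified on RNeasy columns and made into stranded TruSeq mRNA libraries. Genes were filtered with filterByExpr (15334 kept; 10859 had no count), scaled by TMM (factors 0.928 to 1.051) and fitted in 1 robust quasi-likelihood model over 12 libraries with edgeR 4.0.16 in R 4.3.3 (8 residual and 18.61 prior degrees of freedom), with 6 comparisons called at an adjusted p under 0.05. CPM were computed from the counts over the scaled library sizes. Standard errors were approximated from the F statistic, and the procedure was tested on simulated data, where the share of false calls lay above the nominal threshold in some comparisons and below it in others. The simulation changed far fewer genes than were called here, so it cannot check the scaling or the share of false calls where most genes differ.

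The members and gene lists were chosen with earlier results of these data known. By rule, values per library were given for up to 6 called members per direction against WT and up to 4 between leukemias, by size of change, among those whose groups did not overlap and whose higher group averaged 5 CPM or more. Called members against the main direction were named too. From the other lists, counts were given with up to 3 genes per direction, and Ifnar1, Ifnar2 and Irf1; not all genes that this rule gives are reported here. Promoter windows came from RefSeq (GRCm38.p6), exon lengths and gene positions from GENCODE M21, and similar transcripts were found with blastn 2.17.0 (at least 90% identity over 30% of a transcript). Sting1 and Cgas were matched by their older symbols. Alternatives were RLE and upper-quartile scaling, DESeq2 1.42.0, other filters, a replicate block, fits of 2 groups and leaving out each library.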

Additional observations from a re-analysis of the deposited data

How the results depend on the processing

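Of 222 pairs of a member and a comparison, 200 kept their call and their sign under all of up to 19 alternatives, and 22 changed under at least 1. The number of members higher in BN1 than in WT was 4, and 2 under RLE size factors and under DESeq2. The number higher in MA9 than in ME was 2, and 1 under DESeq2 and with the replicate block. The median log2 fold change in MA9 against WT was -2.05, and -1.98 under upper-quartile scaling and -2.12 with no filter on low counts. Gbp3 in BN1 against MA9 (adjusted p = 0.085) was called where only the 2 groups entered the fit (0.045). The causes were not tested. Signs turned for pairs that were called under neither setting. Ifit2 in BN1 against WT (-0.06) was 0.018 without BN1 replicate 3 and 0.039 without WT replicate 1, over a range with single libraries left out of -0.14 to 0.039. Gbp2 in MA9 against ME (-0.0047) was 0.0049 with the replicate block, 0.017 under upper-quartile scaling, 0.088 without MA9 replicate 1 and 0.28 without ME replicate 1 (range -0.23 to 0.28). Ifi47 in MA9 against ME (-0.04) was 0.0045 without MA9 replicate 3 and 0.0030 without ME replicate 2 (range -0.11 to 0.0045). Herc6 was 0.0018 in BN1 against ME without ME replicate 2 (-0.05 with it; range -0.092 to 0.0018) and -0.0055 in MA9 against ME without ME replicate 1 (0.03 with it; range -0.0055 to 0.082).

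With single libraries left out, the members higher and lower ranged from 3 to 4 and 28 to 28 in BN1 against WT, 1 to 1 and 35 to 36 in MA9 against WT, and 2 to 3 and 34 to 34 in ME against WT. Between leukemias they ranged from 26 to 29 and 2 to 2 in BN1 against MA9, 21 to 23 and 6 to 8 in BN1 against ME, and 1 to 2 and 26 to 27 in MA9 against ME. The medians ranged from -1.03 to -0.97, -2.08 to -2.00 and -1.54 to -1.47 against WT, in the order BN1, MA9 and ME, and from 0.77 to 0.82, 0.35 to 0.42 and -0.53 to -0.47 between leukemias. Where a group was left with 2 libraries, the shared spread of all groups was used.

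The labels number the libraries of each group from 1 to 3. Deviations from the group means correlated at -0.118 to 0.112 between libraries of the same number (18 pairs), and 4 of 12 libraries correlated best with their own number, so the numbers were not taken as pairing the samples. With the replicate block, Ifi47 in BN1 against WT (adjusted p = 0.053) and Ifit2 in MA9 against ME (0.055) were no longer called, so the members higher in BN1 than in WT numbered 3. Depth limits the fold changes of Ifi44, which had no leukemia count. For Isg15, with at most 3 counts in a group, the cause of the low counts was not tested.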
